A study of Homo sapiens with 8 samples.

Results

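MALAT1, NEAT1, H19, GAS5, SNHG1, MIR22HG, MIR31HG, MIR210HG and MIR17HG are 9 long non-coding RNAs (lncRNAs), several of which carry microRNAs or small nucleolar RNAs (snoRNAs) in their transcripts. They were chosen by name from the 30017 gene symbols in the data. Expression was measured by sequencing poly(A) RNA of A549 cells, a human lung adenocarcinoma line, in which SMAD3 had been knocked out with CRISPR/Cas9 (A549-S3KO) and a Smad3 cDNA put back with a lentivirus. All 8 libraries thus come from cells without endogenous Smad3 protein. The 4 groups of 2 libraries were cells expressing Smad3(RA/KP), which carries the changes R104K and A105P, after TGF-β or untreated, and cells expressing wild-type Smad3 (WT) after TGF-β or untreated. TGF-β was given at 1 ng/ml for 8 h to cells freshly seeded on collagen. Infected cells had been cloned by limiting dilution, and the paper states that more than 1 clone served its experiments. For wild-type Smad3 it selected the clone expressing least of it. How many clones were sequenced is not stated, so each line may represent 1 clone. The clones sequenced are not named, and the Smad3 form cannot be told apart from clonal differences.

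MALAT1 and NEAT1 are nuclear RNAs made from neighbouring genes. MALAT1 gathers in nuclear speckles, which store splicing factors, and NEAT1 is the scaffold around which paraspeckles form. GAS5 and SNHG1 are spliced RNAs whose introns release box C/D snoRNAs, the guides of ribosomal RNA methylation, and the spliced RNA that remains is short-lived because nonsense-mediated decay removes it. H19 is an imprinted RNA expressed from the maternal allele, whereas IGF2 beside it is expressed from the paternal one. MicroRNAs are cut by Drosha from hairpins in a host transcript and then by Dicer, and the mature strand pairs with target mRNAs mainly through its seed, bases 2 to 8. A poly(A) library reads the host transcript and not the mature microRNA.

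The mature microRNAs of the hosts are shown because the host genes are known for them. The sequences are from RefSeq (GRCh38.p14), 5′ to 3′, with the seed in capitals. MIR22HG, whose level differed most clearly with TGF-β, lies on the minus strand of chromosome 17 with both arms of miR-22. Each of the arms of miR-22, miR-31, miR-210 and miR-675 listed next has a seed found in no other mature microRNA of these hosts.
miR-22-3p: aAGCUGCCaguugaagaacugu
miR-22-5p: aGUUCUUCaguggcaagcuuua
miR-31-5p: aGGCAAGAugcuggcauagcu
miR-210-3p: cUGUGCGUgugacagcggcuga
miR-675-5p: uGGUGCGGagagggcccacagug
The MIR17HG transcript on the plus strand of chromosome 13 holds 6 hairpins, the miR-17-92 cluster. Of the arms shown, miR-17-5p and miR-20a-5p have the same seed, miR-19a-3p and miR-19b-3p have the same seed, and miR-18a-5p and miR-92a-3p each have their own.
miR-17-5p: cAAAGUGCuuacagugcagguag
miR-20a-5p: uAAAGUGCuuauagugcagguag
miR-19a-3p: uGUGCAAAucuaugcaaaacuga
miR-19b-3p: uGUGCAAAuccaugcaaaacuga
miR-18a-5p: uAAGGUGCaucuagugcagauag
miR-92a-3p: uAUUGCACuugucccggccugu

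Levels are in TPM, the abundance of a transcript scaled for its length and to the same total in each library. The coverage beside the FPKM values corresponds to 1.15 to 1.81 Gb of mapped bases per library. SMAD3 transcript, which can come from the lentiviral cDNA and from the edited gene, stood at 137 to 187 TPM in the 8 libraries. Of 23 tested TGF-β and Smad3 target genes, 18 rose in RA/KP cells and 18 rose in WT cells. Among the 7 markers of A549 and epithelium, 6 were above 1 TPM in all libraries and KRT19 was listed at 0 in all of them, so an exact 0 can be a failed estimate. Summed endothelial markers reached at most 0.21 TPM and fibroblast markers 5.29 TPM, and 3 of 4 leukocyte markers were listed at 0, the exception being CD68, which epithelial lines also express. Untreated RA/KP replicate 2 stood apart from the other libraries. Its log2 difference from replicate 1 followed transcript GC content (Spearman's rho -0.589 over 11535 genes, against 0.104 to 0.225 in the other groups), and its replicate correlation was 0.957 against 0.975 to 0.977. RA/KP responses of the 7 tested members and most counts over gene lists are therefore given with and without it.

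The label of abundant genes held for some of the 9 only. GAS5 averaged 390 TPM over the 8 libraries, NEAT1 261 TPM, SNHG1 118 TPM and MIR22HG 50.9 TPM, which placed them above 97.3%, 95.7%, 90.2% and 78.8% of the 13141 genes tested. MALAT1 with 16.3 TPM and MIR31HG with 13.1 TPM lay near the middle, above 55.5% and 50.1%. MIR210HG averaged 2.11 TPM. H19 with 0.936 TPM and MIR17HG with 0.638 TPM missed the minimum mean of 1 TPM, so 7 of the 9 genes entered the test. The NEAT1 record covers 3735 bp at chr11:65422798-65426532 and MALAT1 8708 bp at chr11:65497762-65506469 (GRCh38), both on the plus strand. The NEAT1 record therefore spans the short, polyadenylated isoform, and reads of the long isoform beyond it were not counted.

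MIR22HG, the host of miR-22, was the member that rose with TGF-β. Its level was 69.6 and 69.1 TPM in TGF-β-treated RA/KP cells, against 28.4 and 47.3 TPM in untreated RA/KP cells. In WT cells it was 55.5 and 65.1 TPM after treatment, compared with 30.3 and 42.0 TPM without. The 4 treated libraries were all above the 4 untreated ones, which held for 6.96% of all tested genes in this direction. In bulk RNA, more cells expressing a gene and more RNA per cell cannot be told apart. In RA/KP cells the log2 fold change of TPM + 1 was 0.90 (SE 0.20, 95% interval 0.44 to 1.36), a fold of 1.87, with a limma adjusted p of 0.0388. MIR22HG was thus 1 of 7 tested members called in RA/KP cells, where 4.98% of all tested genes were called and 3.49% were called higher. In WT cells the change was 0.74 (SE 0.20, interval 0.28 to 1.19) and missed the threshold with a limma adjusted p of 0.0810. No member was called in WT cells, where 4.68% of all tested genes were called, and 2 had an unadjusted p below 0.05. The responses of the lines differed by 0.16 (interval -0.48 to 0.81, limma adjusted p of 0.919), and by 0.41 without untreated RA/KP replicate 2 (adjusted p of 0.996).

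The call of MIR22HG in RA/KP cells depended on the fit. Without untreated RA/KP replicate 2 the change was 1.15 (limma adjusted p of 0.0356), and with the dependence on GC content taken out of each library it was 0.97 (limma adjusted p of 0.00862), whereas the adjusted p was 0.122 without the filter on low levels, 0.0575 in a fit of the RA/KP groups alone, 0.0825 with no mean-variance trend and 0.149 with no replicate block, a pairing that the labels do not state. Leaving out any 1 of the other 7 libraries took the adjusted p above 0.05, at most to 0.191, with changes of 0.66 to 1.14. In WT cells MIR22HG passed with the GC trend removed (limma adjusted p of 0.0155), where 1198 of 11535 genes were called. It also passed with median-ratio scaling (0.03945; 659 of 13141 called) and in a fit of the WT groups alone (0.0454, with 731 of 13141 called). It missed the threshold in the other alternative settings that kept all libraries. With either untreated RA/KP library left out the WT change was still 0.74. The response averaged over both lines, a comparison added after the data were seen, was 0.82 (SE 0.14, interval 0.50 to 1.14, limma adjusted p of 0.00619), in which 11.3% of all tested genes were called. Its call held in all 10 alternative settings that kept all libraries, with limma adjusted p-values of 0.00130 to 0.0396, held without untreated RA/KP replicate 2 (0.94, adjusted p of 0.00486) and was lost without treated WT replicate 1 (0.0542).

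**Figure D1:**
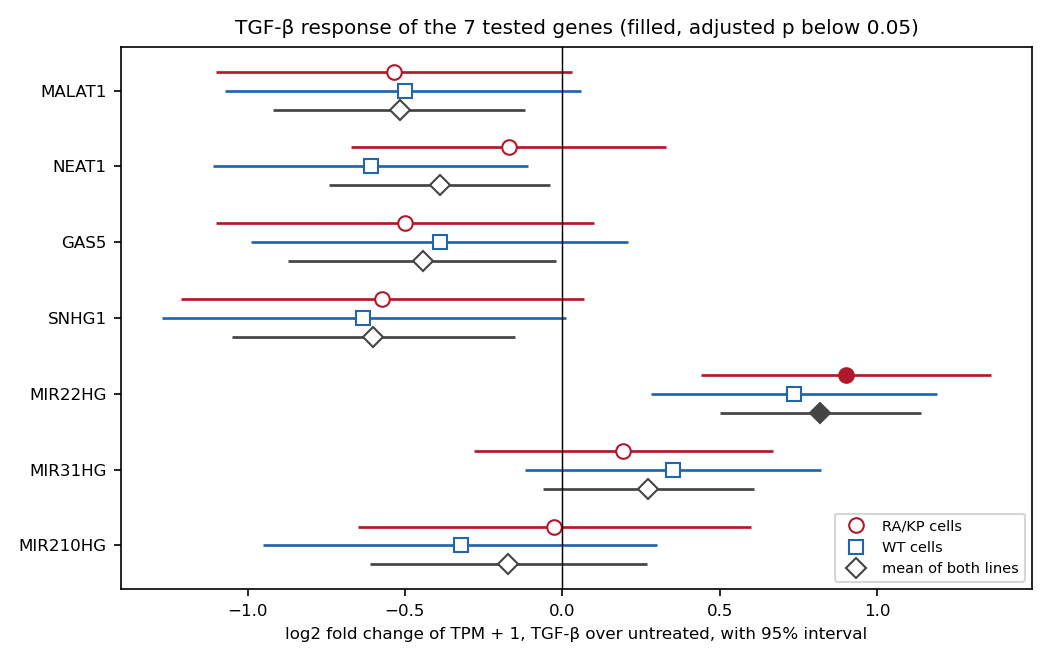
Log2 fold change of TPM + 1, TGF-β over untreated (x axis), for the 7 tested genes in RA/KP cells, in WT cells and as the mean of both lines; lines are 95% intervals and filled symbols have a limma adjusted p below 0.05. Filled symbols appear for MIR22HG only, in RA/KP cells and in the mean of both lines.

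The promoter window of MIR22HG is shown as the regulatory sequence of the gene that moved with TGF-β. The 300 bases run from 250 before to 50 after the RefSeq start, on the minus strand at chr17:1716161-1716460 (GRCh38.p14), 5′ to 3′, with the Smad-binding element core AGAC or its complement GTCT in capitals.
MIR22HG: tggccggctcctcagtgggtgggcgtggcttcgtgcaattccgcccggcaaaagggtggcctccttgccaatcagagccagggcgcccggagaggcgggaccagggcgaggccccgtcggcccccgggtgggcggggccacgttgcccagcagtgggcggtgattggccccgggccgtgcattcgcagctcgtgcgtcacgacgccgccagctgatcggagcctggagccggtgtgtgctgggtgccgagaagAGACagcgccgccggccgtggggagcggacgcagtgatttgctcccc
The window holds 1 AGAC on either strand, and 84.0% of all 35116 promoter windows of this length hold at least 1. It holds no CAGAC (45.3% of windows hold it on either strand, and CAGAC contains AGAC) and no AP-1 site TGANTCA (7.7%). It holds 1 ACGTG, the core of the hypoxia response element, and 21.4% of windows hold at least 1 on either strand. Windows were found for 8 of the 9 genes, and those of GAS5, MIR31HG and MIR17HG hold no AGAC. The windows of these genes and of H19 do not reach the starts of their measured records. They thus do not show whether AGAC is present or absent at those starts.

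The remaining microRNA hosts did not pass the test. MIR31HG, whose transcript holds miR-31 and spans 105431 bp on chromosome 9, was at 12.7 and 13.995 TPM in treated and 9.29 and 14.2 TPM in untreated RA/KP cells. In WT cells it was at 12.4 and 18.8 TPM with TGF-β and 10.9 and 12.8 TPM untreated, so treated and untreated values overlapped in both lines. The log2 changes were 0.19 (interval -0.28 to 0.67) in RA/KP and 0.35 (interval -0.12 to 0.82) in WT cells, with limma adjusted p-values of 0.613 and 0.487. Without untreated RA/KP replicate 2 the RA/KP change was 0.33. Of its 10 alternative settings that kept all libraries, the averaged change of 0.27 passed only with the GC trend removed, where it was 0.49 (limma adjusted p of 0.0257).

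MIR210HG, the host of miR-210, a microRNA induced by hypoxia, was at 2.29 and 1.41 TPM in treated and 2.21 and 1.56 TPM in untreated RA/KP cells. In WT cells it was at 2.33 and 1.64 TPM with TGF-β, below the 2.56 and 2.86 TPM of untreated cells, as for 27.9% of all tested genes. Replicate 2 was the lower library in 3 of the 4 groups, and neither the change in RA/KP cells (-0.03, SE 0.28, and -0.08 without untreated replicate 2) nor that in WT cells (-0.32, SE 0.28) passed. MIR17HG was at 0.638 and 0.702 TPM in treated and 0.602 and 1.21 TPM in untreated RA/KP cells. MIR17HG was listed at 0 in both treated WT libraries, against 1.17 and 0.775 TPM in untreated WT cells, and no fold is given against values at 0. The MIR92A1 record inside its span, on the same strand, was at 0.153 and 2.16 TPM in those treated libraries. The region was thus not without signal where MIR17HG was listed at 0. In a fit with no filter its WT change was -0.97 (limma adjusted p of 0.110) and the difference of the responses 0.80 (adjusted p of 0.844), on a scale where the pseudocount of 1 TPM exceeds most of its values.

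The hairpins themselves gave almost no signal. The MIR22 record stayed at or below 0.001 TPM, the MIR31 record at or below 0.737 TPM, MIR210 was above 0 in 1 library (1.91 TPM), and 4 of the 6 records of the miR-17-92 cluster were listed at 0 throughout, while MIR92A1 reached 2.16 TPM in 1 treated WT library. The levels above therefore describe the host RNAs only.

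Of a list of 35 microRNA host genes, 20 were in the files and 9 were tested. In RA/KP cells 2 of 9 rose, MIR22HG and MIR503HG, host of miR-503 and miR-424, and none fell. Over all tested genes, 3.49% were called higher there. In WT cells none of 9 passed by limma, with 2 at an unadjusted p below 0.05. MIR503HG was at 9.12 and 6.81 TPM in treated against 2.67 and 3.48 TPM in untreated RA/KP cells, and at 3.85 and 4.77 TPM in treated against 3.18 and 3.15 TPM in untreated WT cells. Its change was 1.13 (SE 0.26, limma adjusted p of 0.0429) in RA/KP and 0.34 (SE 0.26, adjusted p of 0.615) in WT cells, and the difference of 0.79 did not pass (adjusted p of 0.881). The list had a median change of 0.32 in RA/KP and 0.20 in WT cells, beside -0.10 and -0.06 over all tested genes. Without untreated RA/KP replicate 2 the 1 of 9 called in either line was MIR22HG, so the call of MIR503HG was lost.

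NEAT1 was at 296 and 245 TPM in treated RA/KP cells, against 236 and 390 TPM in untreated RA/KP cells. Treated WT cells had 174 and 191 TPM, and untreated WT cells 270 and 288 TPM. Treated libraries lay below untreated ones in WT cells, where 27.9% of all tested genes did so, and overlapped in RA/KP cells. The log2 change in RA/KP cells was -0.17 (interval -0.67 to 0.33), and 0.20 (SE 0.17) without untreated RA/KP replicate 2. In WT cells it was -0.61 (SE 0.22, interval -1.11 to -0.11), with a p of 0.0224 before and 0.190 after limma's adjustment across all genes. The WT change passed with the GC trend removed (limma adjusted p of 0.0391), where 1198 of 11535 genes were called. It also passed in a fit of the WT groups alone (limma adjusted p of 0.0410), where 731 of 13141 genes were called. With either untreated RA/KP library left out it was still -0.61. The difference of the responses, 0.44 (SE 0.31), did not pass (limma adjusted p of 0.881). Without untreated RA/KP replicate 2 this difference was 0.81.

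With TGF-β, both RA/KP libraries had more NEAT1 than both WT libraries, as for 18.8% of tested genes. The same held for MIR22HG, H19 and MIR17HG. The log2 difference of NEAT1 was 0.56 (SE 0.22, interval 0.06 to 1.06), a fold of 1.47, with a p of 0.0321 before and 0.658 after limma's adjustment. This comparison called 0.00761% of all tested genes, and no member. Untreated, the lines differed by 0.12 (interval -0.38 to 0.62), and by -0.25 without replicate 2 of RA/KP cells.

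Proteins of the paraspeckle showed no called change. Of 20 tested, none passed in either line (limma), with 2 in RA/KP and 1 in WT cells at an unadjusted p below 0.05, and the median changes were -0.14 in RA/KP and 0.08 in WT cells. Leaving out untreated RA/KP replicate 2, again none passed, with 1 in RA/KP and 4 in WT cells at an unadjusted p below 0.05. Of 29 tested genes near the 9 members, 2 rose in RA/KP cells, and 2 rose and 1 fell in WT cells. Over all tested genes, 4.98% were called in RA/KP and 4.68% in WT cells. LTBP3, next to MALAT1 and NEAT1 and coding for a latent TGF-β binding protein, rose in both lines. It was at 122 and 89.8 TPM in treated against 56.7 and 37.5 TPM in untreated RA/KP cells, and at 92.2 and 88.1 TPM in treated against 53.3 and 42.5 TPM in untreated WT cells (changes of 1.16 and 0.91, limma adjusted p of 0.00678 and 0.0202). TIGD3 in the same region fell in WT cells by 1.46 (adjusted p of 0.0207). The counts near the members without untreated RA/KP replicate 2 were 2 risen in RA/KP cells, and 2 risen and 3 fallen in WT cells.

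MALAT1 was at 15.9 and 13.2 TPM in treated RA/KP cells, against 18.0 and 25.5 TPM in untreated RA/KP cells. Treated WT cells had 9.98 and 13.8 TPM, and untreated WT cells 18.9 and 15.3 TPM. Treated libraries lay below untreated ones within each line, as for 25.4% of tested genes in RA/KP cells, but the highest treated value, 15.9 TPM, exceeded the lowest untreated one. The changes of -0.53 (SE 0.25) in RA/KP and -0.50 (SE 0.25) in WT cells had limma adjusted p-values of 0.254 and 0.377. In the response averaged over both lines, added after the data were seen, MALAT1 changed by -0.52, NEAT1 by -0.39, GAS5 by -0.44 and SNHG1 by -0.60. Their limma p-values were below 0.05 before adjustment, as for 3440 of 13141 tested genes, and 0.0906 to 0.173 after it. Without untreated RA/KP replicate 2 the RA/KP change of MALAT1 was -0.28. None of 21 nuclear speckle protein genes passed in either line by limma, with 1 in each at an unadjusted p below 0.05, and with that library left out 0 passed in RA/KP cells (1 at an unadjusted p below 0.05) and 1 fell in WT cells.

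The snoRNA hosts GAS5 and SNHG1 had negative estimates in both lines with all libraries in the fit. GAS5 had 285 and 349 TPM in treated RA/KP cells, and 292 and 684 TPM in untreated RA/KP cells. In WT cells GAS5 had 314 and 340 TPM when treated and 423 and 434 TPM when untreated, a change of -0.39 (SE 0.27, limma adjusted p of 0.566). Untreated RA/KP replicate 2 was the highest of the 8 libraries. SNHG1 had 104 and 90.0 TPM in treated RA/KP cells, and 102 and 204 TPM in untreated RA/KP cells. In WT cells SNHG1 had 95.8 and 79.5 TPM when treated and 139 and 133 TPM when untreated, a change of -0.63 (SE 0.28, limma adjusted p of 0.306). The treated libraries of both genes overlapped the untreated ones in RA/KP cells and lay below them in WT cells, as for 27.9% of all tested genes.

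The RA/KP values of GAS5 and SNHG1 rested on untreated replicate 2. With it their changes were -0.50 (limma adjusted p of 0.302) and -0.57 (limma adjusted p of 0.273), and without it 0.04 and 0.01. Without replicate 1 in its place they were -1.04 and -1.15. Either way the untreated RA/KP group is left with 1 library, which limma assumes to vary like the other groups. In that library GAS5 was 2.34 times, SNHG1 1.99 times and NEAT1 1.66 times its level in replicate 1, and MIR210HG 0.707 times and H19 0.151 times. The GC content of the longest annotated transcript was 39.2% for GAS5, 42.3% for SNHG1 and 44.1% for NEAT1, below the 48.8% median of tested genes, and 59.0% for MIR210HG and 63.6% for H19. For GAS5, SNHG1 and NEAT1 that transcript has 3145, 3771 and 22743 bases, and the measured records span 4087, 3901 and 3735 bp. Its GC content may thus differ from that of the RNA measured. MIR22HG, with 50.0% GC, was 1.66 times its level in replicate 1. MALAT1 (42.0% GC) was 1.42 times, MIR31HG (37.3%) 1.53 times and the low gene MIR17HG (34.0%) 2.015 times its level there. With the GC trend removed the RA/KP changes of GAS5 and SNHG1 were -0.13 and -0.27 (limma adjusted p of 0.688 and 0.447). In WT cells the changes of SNHG1 and GAS5 stayed at -0.63 and -0.39 with either untreated RA/KP library left out.

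**Figure D2:**
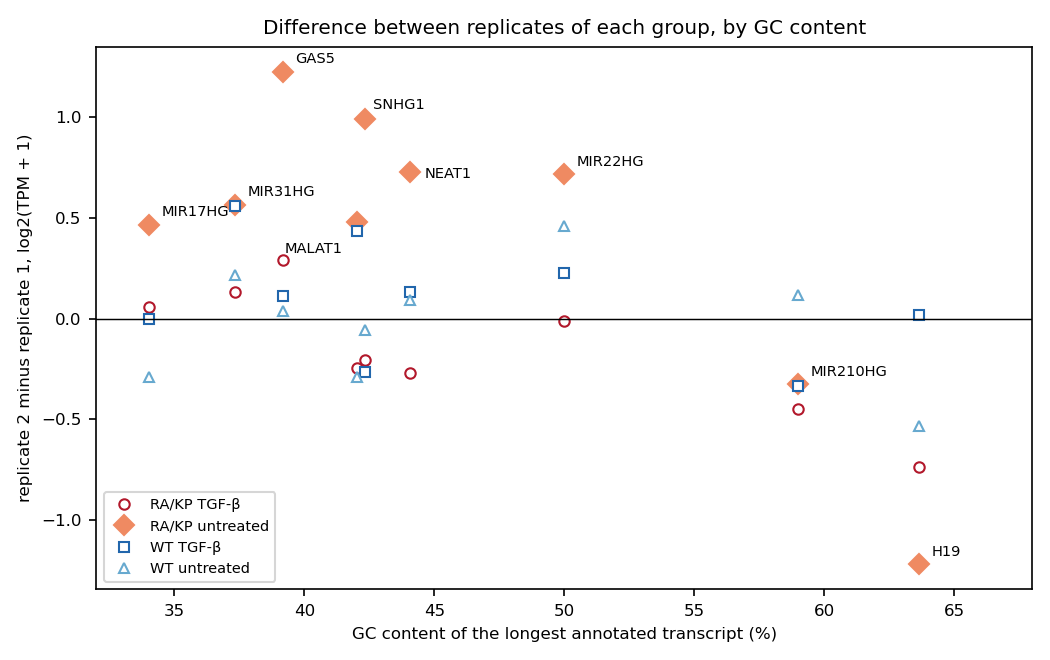
Difference between replicate 2 and replicate 1 in log2(TPM + 1) (y axis) against GC content of the longest annotated transcript in percent (x axis), for the 9 genes in each group; large filled diamonds are untreated RA/KP cells. The diamonds are highest for GAS5 (1.23 at 39.2% GC) and lowest for H19 (-1.22 at 63.6% GC). Those of lower GC content than GAS5, MIR17HG (0.466 at 34.0%) and MIR31HG (0.565 at 37.3%), lie below it, as does MALAT1 (0.479 at 42.0%).

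Across the list of snoRNA hosts, 21 of 31 were tested and none passed in either line by limma (1 in RA/KP and 2 in WT cells at an unadjusted p below 0.05). In RA/KP cells 17 of 21 had a negative estimate, with a median of -0.25, whereas 59.7% of all tested genes were negative with a median of -0.10. In WT cells 19 of 21 were negative with a median of -0.32, beside 58.5% of all genes with a median of -0.06. Leaving out untreated RA/KP replicate 2, the RA/KP count was 10 of 21 with a median of 0.01, and 1 of 21 fell in WT cells. With libraries scaled by median ratios, 15 of 21 were negative in RA/KP and 19 of 21 in WT cells. In WT cells the lowest estimates were those of SNHG1, SNHG15 and ZFAS1. The genes for the surveillance factors that degrade such transcripts did not pass, with 0 of 16 in either line. By limma, 2 in RA/KP and 0 in WT cells had an unadjusted p below 0.05. On a list of mRNAs with terminal oligopyrimidine tracts, 1 of 20 rose, beside 4.98% of all tested genes called in RA/KP and 4.68% in WT cells. It was VIM, which codes for the filament protein vimentin and not for a translation factor. Its changes were 1.02 in RA/KP and 0.81 in WT cells. Without untreated RA/KP replicate 2, 0 of 20 passed in RA/KP cells (1 at an unadjusted p below 0.05 by limma) and 1 rose in WT cells.

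**Figure D3:**
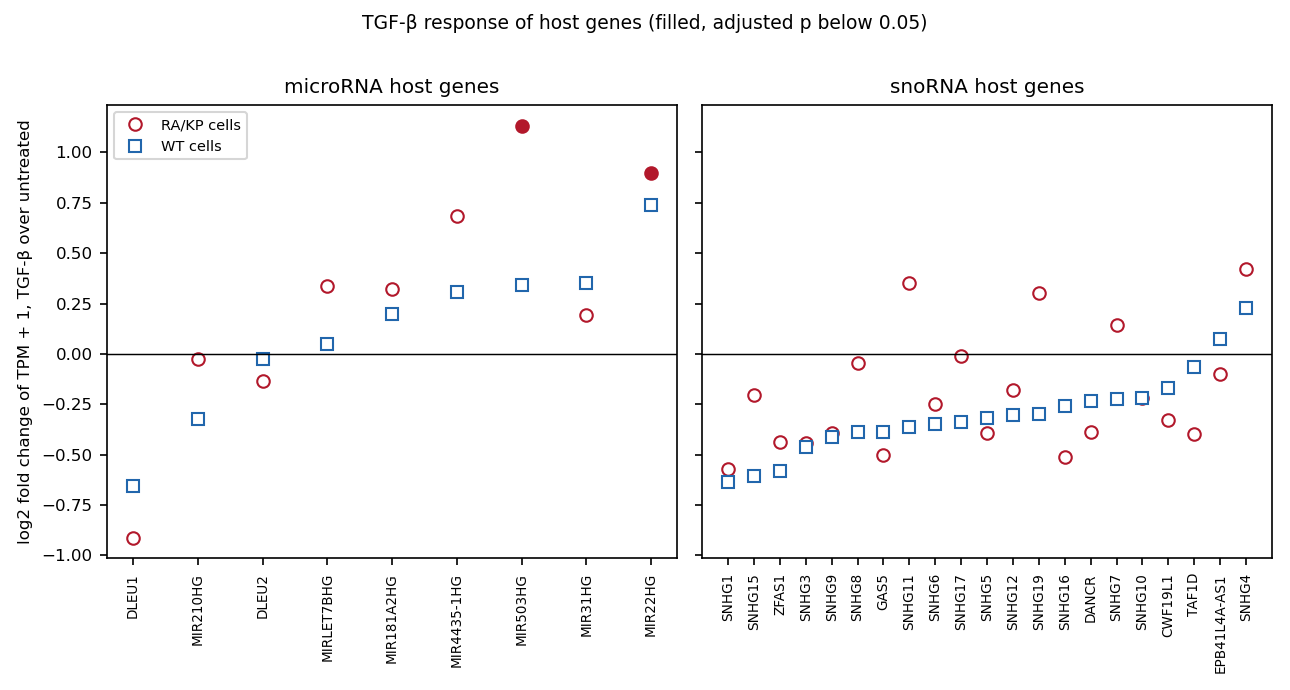
Log2 fold change of TPM + 1, TGF-β over untreated (y axis), for the 9 tested microRNA host genes (left) and the 21 tested snoRNA host genes (right), ordered by the WT value; filled symbols have a limma adjusted p below 0.05. Filled symbols are MIR22HG and MIR503HG in RA/KP cells, and 19 of 21 WT squares lie below 0 on the right.

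The snoRNA records inside the hosts also held signal. Of 10 SNORD records inside GAS5 on chromosome 1, 9 were above 0 in all 8 libraries (SNORD44, SNORD47, SNORD74, SNORD76, SNORD77, SNORD78, SNORD79, SNORD80 and SNORD81). All 8 records inside SNHG1 on chromosome 11 were (SNORD22, SNORD25, SNORD26, SNORD27, SNORD28, SNORD29, SNORD30 and SNORD31). SNORD80 was highest among those of GAS5 in 7 of the 8 libraries, all but treated WT replicate 2, with 48.8 and 30.8 TPM in treated against 47.6 and 141 TPM in untreated RA/KP cells. Reads of unspliced host RNA and of mature snoRNA cannot be told apart in these values.

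H19 was low, and its replicates lay far apart in RA/KP cells. It was at 1.74 and 0.647 TPM in treated against 2.05 and 0.308 TPM in untreated RA/KP cells, and at 0.574 and 0.594 TPM in treated against 1.11 and 0.460 TPM in untreated WT cells. Its no-filter changes were 0.09 in RA/KP and -0.15 in WT cells (limma adjusted p of 0.929 and 0.926), and the MIR675 record did not exceed 0.001 TPM. IGF2, its imprinted neighbour and a growth factor gene, rose in both lines. IGF2 was at 23.3 and 12.1 TPM in treated against 6.41 and 2.87 TPM in untreated RA/KP cells, and at 18.96 and 11.7 TPM in treated against 4.09 and 2.07 TPM in untreated WT cells. The changes were 1.74 in RA/KP and 2.01 in WT cells (limma adjusted p of 0.00277 and 0.00132).

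Of 10 tested genes of the imprinting list, IGF2 and MEG3, an imprinted lncRNA, were the 2 that rose in each line, and none fell. The shares called over all tested genes were 4.98% in RA/KP and 4.68% in WT cells. MEG3 was at 220 and 277 TPM in treated against 72.0 and 82.4 TPM in untreated RA/KP cells, and at 136 and 175 TPM in treated against 59.6 and 92.2 TPM in untreated WT cells (changes of 1.67 and 1.05, limma adjusted p of 8.4e-04 and 0.00752). Among 22 tested other lncRNAs, MEG3 was the only one that rose in either line, and none fell. The counts of both lists were the same without untreated RA/KP replicate 2.

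Some genes with roles around the hosts were called, beside 4.98% of all tested genes in RA/KP and 4.68% in WT cells. Of 28 hypoxia and HIF1 target genes, 3 rose and 1 fell in RA/KP cells, and 1 rose and 2 fell in WT cells. VEGFA, the angiogenic growth factor, rose in both (1.76 in RA/KP and 1.28 in WT cells), CA12, a carbonic anhydrase, fell in both (-0.94 and -1.15), PFKFB4, a regulator of glycolysis, and NDRG1 rose in RA/KP cells (1.35 and 0.86), and ADM, which codes for adrenomedullin, fell in WT cells (-1.20). With untreated RA/KP replicate 2 left out, 2 of these genes rose and 0 fell in RA/KP cells, and 1 rose and 3 fell in WT cells. Of 14 genes on a list of MYC and E2F factors and partners, CCND1, a cyclin, rose in RA/KP cells (0.77), and E2F2, a cell-cycle transcription factor, fell in WT cells (-1.23). Without that library 0 of 14 passed in RA/KP cells (4 at an unadjusted p below 0.05 by limma), and 1 rose and 2 fell in WT cells. Of 16 genes of microRNA processing none passed in either line by limma, with 1 in RA/KP and 0 in WT cells at an unadjusted p below 0.05, and these counts were the same without that library. CDKN2A and CDKN2B, near MIR31HG and known to be deleted in A549 cells, were listed at 0 in all libraries, whereas MTAP beside them averaged 5.40 TPM.

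No member passed the limma test between the Smad3 forms. Of the 7 tested, NEAT1 in treated cells was the 1 with an unadjusted p below 0.05. Over all genes, the calls were 0.0152% of tested genes in untreated cells, 0.00761% in treated cells and 0.0228% for the difference of the responses. In untreated cells the member differences ran from -0.37 for MIR210HG to 0.31 for MALAT1, with intervals reaching from -0.99 to 0.88, and without replicate 2 of RA/KP cells from -0.50 for SNHG1 to 0.06 for MALAT1. In treated cells NEAT1 had the highest difference of the 7 tested members, and the others lay between -0.19 for MIR31HG and 0.28 for MALAT1. Except for NEAT1 in treated cells, the 95% intervals of the tested members include 0 and reach both ways. In the fit with no filter, MIR17HG differed by 0.74 in treated cells. That value rests on its listing at 0 in both treated WT libraries, where the MIR92A1 record inside its span held signal. The limma p of MIR17HG was 0.0130 before and 0.722 after adjustment. H19 differed by 0.42 there (limma adjusted p of 0.771).

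Patterns over the 8 libraries were compared by Pearson's r of log2(TPM + 1) with each gene of at least 5 TPM on average, as a description of libraries that share treatment, line and base composition. MIR22HG was most like NAV2 (r of 0.985) and EPAS1 (0.982), which codes for a hypoxia-inducible factor. GAS5 was most like SNHG5 (0.992), another snoRNA host, and PSMD14 (0.992), a proteasome subunit, and SNHG1 was most like TPT1 (0.980) and THAP5 (0.972). NEAT1 was most like LOC102723828 (0.991) and CHAMP1 (0.974), and MALAT1 was most like MST1R (0.978), a receptor tyrosine kinase, and MIF4GD (0.978). MIR31HG was most like FKBP1A (0.978) and HSPA5 (0.978), the chaperone of the endoplasmic reticulum. The low genes H19, MIR210HG and MIR17HG had their highest values with KRT8 (0.974) and OCEL1 (0.950), with AFMID (0.954) and SLC35B2 (0.944), and with CYB561A3 (0.976) and SAP30L (0.951). Within the 9 genes the highest r was 0.884, between NEAT1 and MIR17HG, followed by GAS5 and SNHG1 (0.874) and MALAT1 and NEAT1 (0.848), and MIR22HG was negative with 7 of the other 8.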

How the data were processed

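Poly(A) RNA of 8 libraries was sequenced on Ion libraries. Alignment to GRCh38 used HISAT2 2.1.0, and the authors then quantified annotated genes without transcript assembly with StringTie 2.0.4, per the submitters' processing notes; the annotation release and use of strand are not given in the sources used here, so antisense transcripts cannot be told apart. The deposited tables hold coverage (a signal per base), FPKM and TPM values and no read counts. The TPM values deposited by the authors were the main measure, the deposited FPKM values served as an alternative, and the coverage deposited by the authors was used for depth only.

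Records of one symbol were summed. The 13141 of 30017 symbols averaging 1 TPM or more were tested on log2(TPM + 1) with limma 3.58.1 (R 4.3.3; empirical Bayes with a mean-variance trend, Benjamini-Hochberg over all genes tested, threshold 0.05), with all groups in 1 fit and the replicate number as a block. With 2 libraries per group the residual degrees of freedom were 3, and those of the prior 5.9. The paper's supplement describes the RNA comparison as made in 2 independent experiments. The labels do not tie the replicate numbers to these experiments, and p-values measure the spread between these libraries. Data were simulated with noise independent between libraries and no replicate effect or GC trend, so recovery in the real libraries may differ. In these simulated data the fit called 3, 27 and 50 of 50 genes given WT log2 changes of 0.5, 1 and 2. It also called 13 unchanged genes. For the difference of the responses it called 0, 5 and 39 of 50, and 12 unchanged genes. Changes of the size seen in the members could thus be missed. Python 3 with pandas and matplotlib did the rest.

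All 9 members were named; from each gene list (snoRNA hosts, microRNA hosts, paraspeckle and nuclear speckle proteins, hypoxia, microRNA processing, MYC and E2F, imprinting, nonsense-mediated decay, oligopyrimidine mRNAs, other lncRNAs, neighbours, TGF-β targets) up to 3 genes past the threshold with the highest change per comparison, or with none past it up to 2 of smallest p. Beside these, the 2 genes most correlated with each member were named, and small RNA records above 0 in all libraries. SNHG15, ZFAS1, NDRG1, CDKN2A, CDKN2B, MTAP, CD68, KRT19 and SMAD3 were named outside this rule after their values were seen. Members and lists were chosen with earlier results of these data known. GC content came from the longest GENCODE transcript of each gene, which need not be the one measured, and covered 87.8% of the genes tested. Alternatives changed the pseudocount, filter, unit, scaling, block, GC trend, variance trend, duplicate records, groups fitted and libraries. The averaged response and the repeat counts over lists were added after the data were seen.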

Additional observations from a re-analysis of the deposited data

How the results depend on the processing

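With 2 libraries a group precision is limited, depth beyond 1.15 to 1.81 Gb of mapped bases is unknown as read counts, and low genes (H19, MIR17HG, MIR210HG) are the least precise. Members called for the TGF-β response in RA/KP cells were 1, and 0 with no filter, no mean-variance trend or only the groups compared, and 0 to 2 when leaving out single libraries. For WT cells they were 0, and 1 with median-ratio scaling, 2 with the GC trend removed, 2 with only the groups compared and 0 to 3 when leaving out single libraries. For the difference of the responses and both comparisons of the Smad3 forms they were 0 throughout, 0 to 0 when leaving out single libraries. The averaged response, added after seeing the data, called 1 member, MIR22HG, where 11.3% of all tested genes were called. When leaving out single libraries, its change ran from 0.696 to 0.941. In these responses the number of members called varied with the library left out, as did the number of genes called in all.

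Whether the replicate numbers pair the libraries was not settled: the correlation of deviations between same-numbered libraries ran from 0.0484 (treated and untreated RA/KP) to 0.332. With no replicate block, 0 members were called in RA/KP and 0 in WT cells, MIR22HG had adjusted p-values of 0.149 and 0.261 there and 0.0342 averaged over both lines, and 269 and 277 genes were called in all, against 655 and 615 with the block; the averaged response called 870 against 1484. Without a filter 242 and 287 genes were called in RA/KP and WT cells (959 averaged), with the GC trend removed 1198 in WT cells, and when leaving out single libraries 163 to 2622 in RA/KP and 106 to 1011 in WT cells.

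Estimates that changed sign are given next. With the GC trend removed these were NEAT1 in RA/KP cells (0.077), the difference of the responses for MALAT1 (0.22), GAS5 (0.21) and MIR31HG (0.19), the untreated comparison of Smad3 forms for GAS5 (-0.082) and SNHG1 (-0.018), and the treated one for GAS5 (0.13) and MIR31HG (0.007). With median-ratio scaling they were MIR210HG in RA/KP cells (0.028) and the difference for MALAT1 (0.002). Of 449 member values under alternatives that kept all libraries, 429 kept direction and call, and of 336 with 1 library left out, 282 did and 34 changed sign. When leaving out single libraries, the ranges that crossed 0 were, for the response in RA/KP cells, NEAT1 -0.542 to 0.20, GAS5 -1.039 to 0.039, SNHG1 -1.154 to 0.010 and MIR210HG -0.161 to 0.108. For the difference of the responses they were MALAT1 -0.289 to 0.224, GAS5 -0.651 to 0.428, SNHG1 -0.52 to 0.644 and MIR22HG -0.082 to 0.409. Between the untreated forms they were NEAT1 -0.249 to 0.493, GAS5 -0.477 to 0.601, SNHG1 -0.496 to 0.668, MIR22HG -0.207 to 0.284 and MIR31HG -0.161 to 0.102. Between the treated forms they were GAS5 -0.251 to 0.153, SNHG1 -0.106 to 0.402, MIR22HG -0.036 to 0.44 and MIR210HG -0.21 to 0.059. The cause of these changes was not tested.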
